A study of Bos taurus with 12 samples.

Results

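The nuclear genes of the mitochondrial respiratory chain were examined in intercaruncular endometrium of cows of different age, biopsied at Day 15 of the cycle. Members were chosen by symbol alone: every probe whose gene name starts with NDUF, UQCR, ATP5, COX4, COX5, COX6, COX7 or COX8, or is SDHA, SDHB, SDHC, SDHD, CYC1 or CYCS. This gave 238 probes for 104 transcripts and 92 gene symbols, of 26323 transcripts on the array. They comprised 40 transcripts of complex I, 6 of its assembly factors, 5 of complex II, 9 of complex III, 2 of cytochrome c, 22 of complex IV, 1 of the supercomplex factor COX7A2L and 19 of ATP synthase. ATP5S (now DMAC2L) and ATP5SL (now DMAC2) are counted with ATP synthase by their older symbols only, and are not core subunits of that enzyme. All 104 passed the filter on dim probes in each comparison.

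One biopsy per animal was hybridized to 1 array each for 4 old females (OF; cows 0233, 0234, 0245 and 2258), 4 young females (YF; cows 1069, 1070, 1072 and 1127) and 4 cows labelled contemporary. OF were 13 to 14 years old and had never calved, whereas YF were 4 to 5 years old and had calved once, so age and parity cannot be told apart. All OF and YF were Holstein clones of a single donor cow raised under common conditions. The spread between them is therefore that of 1 nuclear genome, and their mitochondrial DNA types are not given. Neither age nor genotype of the contemporary cows is given in the sources used here. Contemporary cow 1111, which the labels set aside for a divergent phenotype, was kept out of the fits and its values are given separately, leaving contemporary cows 1068, 1128 and 1129.

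The respiratory chain passes electrons from NADH through complex I, and from succinate through complex II, to ubiquinone, complex III, cytochrome c and finally complex IV, which reduces oxygen. Complexes I, III and IV pump protons across the inner mitochondrial membrane, and ATP synthase uses the gradient to make ATP. Most subunits are encoded in the nucleus, a few core ones are encoded by mitochondrial DNA, and several complex IV subunits exist in a ubiquitous form and a form typical of muscle, lung, testis or low oxygen. In endometrium, epithelium, stroma and vessels all contain mitochondria, so that each value below is an average over cell types.

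Levels are log2 signals relative to the 75th percentile of the same array, averaged over the probes of a transcript, and are compared only between animals for the same transcript. The 75th percentile itself ranged from 967.5 to 1596.7 intensity units, 71.6 to 74.9% of the spots were well above background and no spot was saturated. Smooth muscle markers stood far above the other animals in OF 2258 and OF 0234, by medians of 3.75 and 2.12 over the mean of 11 animals, against -1.22 to 0.02 in the other 9. Epithelial markers were low in OF 2258 and YF 1069, with medians of -2.07 and -1.21. Without OF 2258 the difference between OF and YF had the other sign in 11 of 39 transcripts of the genes named by rule, and without OF 2258 and OF 0234 in 15 of 39, and none passed the test (limma, adjusted p). Some of these changes are given with the genes.

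No respiratory chain transcript passed the test between OF and YF. At an adjusted p below 0.05 (limma, Benjamini-Hochberg over 19755 transcripts) 0 of 104 members were called, and 0% of all transcripts tested, and the lowest adjusted p of a member was 0.999. At an unadjusted p below 0.05 the count was 0 of 104, against 2.42% of all transcripts tested, and in none of the 104 were the 4 OF separated from the 4 YF, against 1.53% of all. FCROS, the rank method named in the study's methods, called 1 member, NDUFA4L2, against 4.94% of all transcripts on the array. In bulk tissue fewer cells of a type and less RNA per cell cannot be told apart, and the values describe RNA, not protein or respiration.

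The differences were small as well as uncalled. The median over the 104 was 0.02 log2 (63 with a higher mean in OF, 41 in YF), beside 0.01 over all transcripts tested, and single values lay between -0.55 (NDUFA4L2) and 0.39 (COX4I2). In 96 of 104 the difference was smaller than the standard deviation between animals within groups. The 95% interval of the difference lay wholly within 2-fold either way for 102 of 104 (98.1%), compared with 74.7% of all transcripts tested. COX4I2 and NDUFA4L2 were the exceptions. Within 1.5-fold either way, the corresponding shares were 84 of 104 (80.8%) and 39.3%. The members also varied less between animals: the median standard deviation within OF and YF was 0.21 log2 for members and 0.33 for all transcripts tested. The members were also brighter, with a median level of 2.68 against -1.86, and the part of brightness in their smaller spread was not tested.

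**Figure D1:**
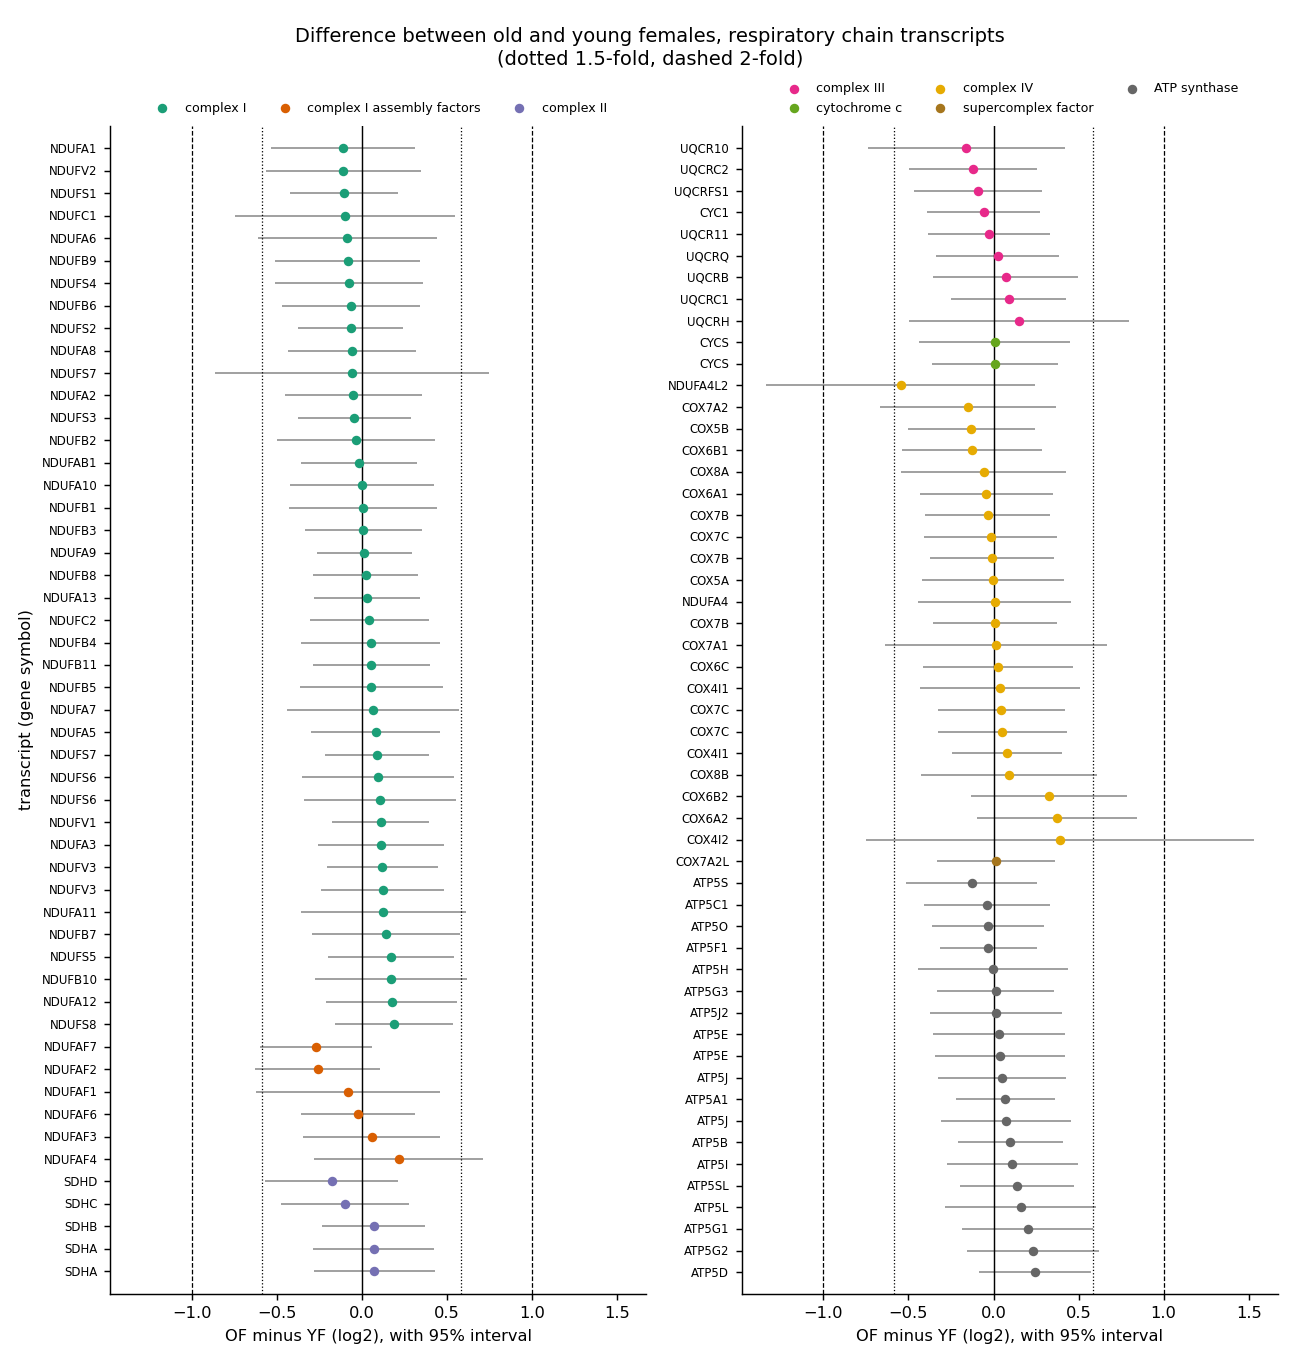
Difference between OF and YF (log2, x axis) for each of the 104 respiratory chain transcripts (y axis, by gene symbol), with 95% limma intervals, coloured by complex, n = 4 animals per group. Points scatter around 0 in every complex, and only the intervals of COX4I2 and NDUFA4L2 cross a 2-fold line (dashed).

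Complex I, the NADH dehydrogenase, had a median difference between OF and YF of 0.03 log2 over 40 transcripts, 25 with a higher and 15 with a lower mean in OF. NDUFS1, the large iron-sulfur subunit, had a mean ± SD of -0.13 ± 0.10 in the 4 OF and -0.03 ± 0.18 in the 4 YF, a difference of -0.11 with a 95% interval of -0.43 to 0.21. NDUFV1, which carries the NADH binding site, averaged 3.32 ± 0.11 and 3.21 ± 0.09, a difference of 0.11 (-0.18 to 0.40). NDUFS8, an iron-sulfur subunit of the peripheral arm, had the highest difference at 0.19 (-0.16 to 0.53), and NDUFA1, an accessory subunit, the lowest at -0.11 (-0.53 to 0.31). For NDUFA1 it was 0.02 without OF 2258 and OF 0234.

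The 6 NDUFAF genes, whose proteins assemble complex I, had a median of -0.05, 2 higher and 4 lower in OF. NDUFAF7, a methyltransferase that acts on complex I during assembly, had the smallest unadjusted p of all members in this comparison. It measured -2.84, -2.86, -2.69 and -3.15 in OF 0233, 0234, 0245 and 2258, and -2.47, -2.70, -2.70 and -2.58 in YF 1069, 1070, 1072 and 1127. Most OF lay below most YF, but OF 0245 lay among the YF. The difference was -0.27 (-0.60 to 0.06; exact two-sided permutation p = 0.0857 over the 8 animals, where 0.0286 is the lowest possible). It was -0.15 without OF 2258 and OF 0234. NDUFAF4, another assembly factor, had the opposite sign, 0.22 (-0.28 to 0.71), and OF 2258 at -1.06 carried it: without that animal the difference was 0.03.

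Complex II, the succinate dehydrogenase, had a median of 0.07. Its flavoprotein SDHA differed by 0.07 (-0.29 to 0.42) and its iron-sulfur subunit SDHB by 0.07 (-0.24 to 0.37). SDHB was tight in OF, at 1.92 ± 0.05. SDHD, one of the membrane anchors, had the lowest value of the complex, -0.18 (-0.57 to 0.21), which came from OF 0245 at -0.45 while the other OF lay between 0.09 and 0.18 and the YF between 0.01 and 0.25.

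Complex III, which moves electrons from ubiquinol to cytochrome c, had a median of -0.03, 4 higher and 5 lower in OF. UQCRC1, a core protein, differed by 0.09 (-0.25 to 0.43), the Rieske iron-sulfur protein UQCRFS1 by -0.09 (-0.47 to 0.28) and the cytochrome c1 gene CYC1 by -0.06 (-0.39 to 0.27). The small subunits UQCRH, the hinge protein, and UQCR10 had the highest and lowest values, 0.15 and -0.16, and both were widely spread within groups. Both turned without OF 2258, to -0.08 for UQCRH and 0.02 for UQCR10, and without OF 2258 and OF 0234 they were -0.26 and 0.17. CYC1 was 0.09 without these 2 cows. CYCS, the carrier itself, was level when averaged over probes: -0.57 ± 0.15 in OF and -0.57 ± 0.24 in YF for the transcript on chromosome 4. Its probe sequences went opposite ways, with differences between OF and YF of 0.14 and -0.12. Probes differed in sign in 19 of the 104 members.

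Complex IV had a median of 0.01, 12 higher and 10 lower in OF. COX5A differed by less than 0.01 log2 (-0.42 to 0.41), but by 0.07 without OF 2258 and 0.17 without OF 2258 and OF 0234. COX4I1, the ubiquitous form of the largest nuclear subunit, averaged 4.86 ± 0.17 in OF and 4.78 ± 0.13 in YF, a difference of 0.08, or 0.01 without OF 2258. The difference in COX7A2L, which joins complexes III and IV into supercomplexes, was 0.01 (-0.33 to 0.36).

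ATP synthase had 14 transcripts higher and 5 lower in OF with a median of 0.05, and 0 of the 19 had an unadjusted p below 0.05. The catalytic head subunits ATP5A1 (now ATP5F1A) and ATP5B (ATP5F1B) differed by 0.07 (-0.22 to 0.36) and 0.10 (-0.21 to 0.41). ATP5D (ATP5F1D), the delta subunit of the central stalk, had the highest difference. Its levels were 2.29, 2.09, 2.44 and 2.21 in the OF and 1.80, 2.21, 2.04 and 2.0 in the YF, in the order of cows given above. All OF lay above the 3 lower YF, but YF 1070 lay within the OF range. The difference was 0.25 (-0.08 to 0.58; exact permutation p = 0.0857 over the 8 animals) and 0.30 with slide as a block. The genes of the proton-carrying c ring differed by 0.20 (ATP5G1), 0.23 (ATP5G2) and 0.01 (ATP5G3), with intervals that all covered 0. Without OF 2258 they were 0.13, 0.12 and -0.02. ATP5S had the lowest value, -0.13 (-0.51 to 0.26), or 0.01 without OF 2258 and OF 0234.

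**Figure D2:**
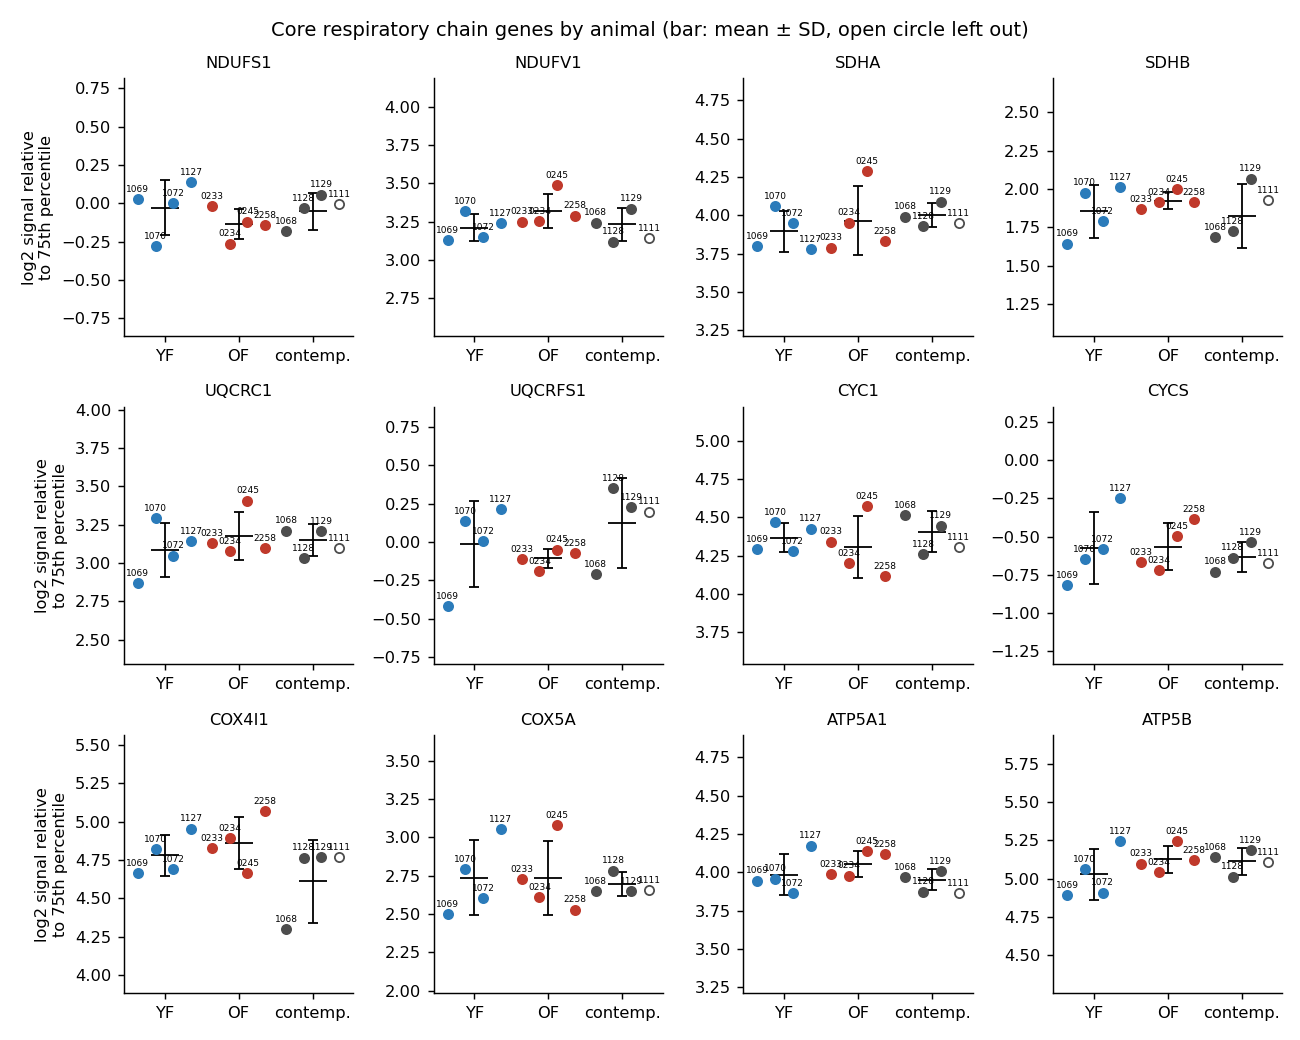
Level of 12 core genes of the chain in each animal (y axis, log2 signal relative to the 75th percentile of the array; every panel spans the same range), with group mean ± SD; the open circle is contemporary cow 1111, left out of the mean. The 3 groups overlap in every panel, and YF 1127 and OF 0245 are often the highest animals.

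The widest spread lay in COX4I2 and NDUFA4L2, alternative forms of complex IV subunits. Over the 11 animals the standard deviation was 0.70 for COX4I2 and 0.65 for NDUFA4L2, against a median of 0.20 over members and 0.33 over 19498 transcripts tested in all comparisons.

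NDUFA4L2, a form of the complex IV subunit NDUFA4 known for its induction by low oxygen, measured -5.06, -5.01, -4.52 and -4.93 in the 4 OF. In YF 1069, 1070 and 1072 it was -4.13, -3.67 and -4.15, above every OF, but in YF 1127 it was -5.38, below every OF. Contemporary cows 1068, 1128 and 1129 had -3.60, -4.86 and -3.59. The difference between OF and YF was -0.55 (-1.34 to 0.24; exact permutation p = 0.229 over the 8 animals). Without YF 1127 it was -0.90. It was -0.24 among the animals of slide 2, and the lowest limma adjusted p over 19 alternatives was 0.355. Between contemporary cows and OF the difference was 0.86 (0.07 to 1.66), a fold of 1.82, with limma p-values of 0.0372 unadjusted and 0.912 adjusted and a permutation p of 0.0571 by exact enumeration, where 3 against 4 animals allow 0.0286 at the lowest. The groups overlapped through contemporary cow 1128, and without that cow the difference was 1.28. With normexp background correction the differences were -0.14 between OF and YF and 0.35 between contemporary cows and OF. FCROS called the gene here too, with a fold of 1.94 (the ratio of arithmetic means).

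The level of NDUFA4L2 rests on a pair of probes of unlike brightness at chr5:56537021-56539323 (UMD3.1, the build of the array). Probe 1 was not well above background on any of the 12 arrays, and probe 2 was on all of them. Their first 30 bases, read from the array files, are shown since the gene had the smallest p of the group.

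NDUFA4L2 probe 1: tccttgcagtttccactgactacaagaaac

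NDUFA4L2 probe 2: ctcccctacttccctcggtccccagggatc

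On probe 2 alone the OF averaged -1.31 ± 0.31, the YF -0.93 ± 0.71 and the contemporary cows -0.49 ± 0.53. The order of the groups was that of the averaged value. The difference between OF and YF became -0.38, and that between contemporary cows and OF 0.83.

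COX4I2, the form of COX4I1 best known from lung and from low oxygen, measured -3.81, -2.93, -3.66 and -1.75 in the OF and -2.75, -3.09, -3.60 and -4.27 in the YF. OF 2258 was the highest and YF 1127 the lowest of all animals, so the groups overlapped over most of their range. The difference was 0.39 (-0.75 to 1.53), but -0.04 without OF 2258 and -0.31 without OF 2258 and OF 0234, the animals with high smooth muscle markers. The part of muscle in COX4I2 was not tested.

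COX7A1, the heart and skeletal muscle form of COX7A2, was likewise highest in OF 2258 (3.38) and next in YF 1069 (3.21), the animals with the lowest epithelial markers, against 2.15 to 2.94 in the others. The difference between OF and YF was 0.02 (-0.64 to 0.67) and -0.33 without OF 2258 and OF 0234. COX7A2 differed by -0.15 (-0.66 to 0.37).

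COX6A2, the muscle form of COX6A1, was at the edge of detection, with 1 of its probes well above background on 8 of 12 arrays. It measured -5.74, -5.52, -5.52 and -5.03 in the OF and -5.80, -5.48, -5.86 and -6.16 in the YF. YF 1070 lay within the OF and the other 3 YF below them. The difference was 0.37 (-0.10 to 0.84; exact permutation p = 0.114 over the 8 animals) and 0.23 without OF 2258. COX6A1 differed by -0.04 (-0.43 to 0.35).

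The remaining pairs showed no wider separation. COX6B2, known as a testis form of COX6B1, differed by 0.32 (-0.13 to 0.78; exact permutation p = 0.114 over the 8 animals) and COX6B1 by -0.13 (-0.54 to 0.28). COX8B, a muscle form, differed by 0.09 (-0.43 to 0.61) and COX8A by -0.06 (-0.54 to 0.43), or 0.09 without OF 2258. The COX6B1 and COX8A transcripts were placed at short loci, of 479 bases on chromosome 5 and 448 on chromosome 20. Whether these loci are the genes or copies of them was not tested. NDUFA4 itself differed by 0.01 (-0.44 to 0.46). No probe was found under the symbols COX7B2 and COX8C.

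**Figure D3:**
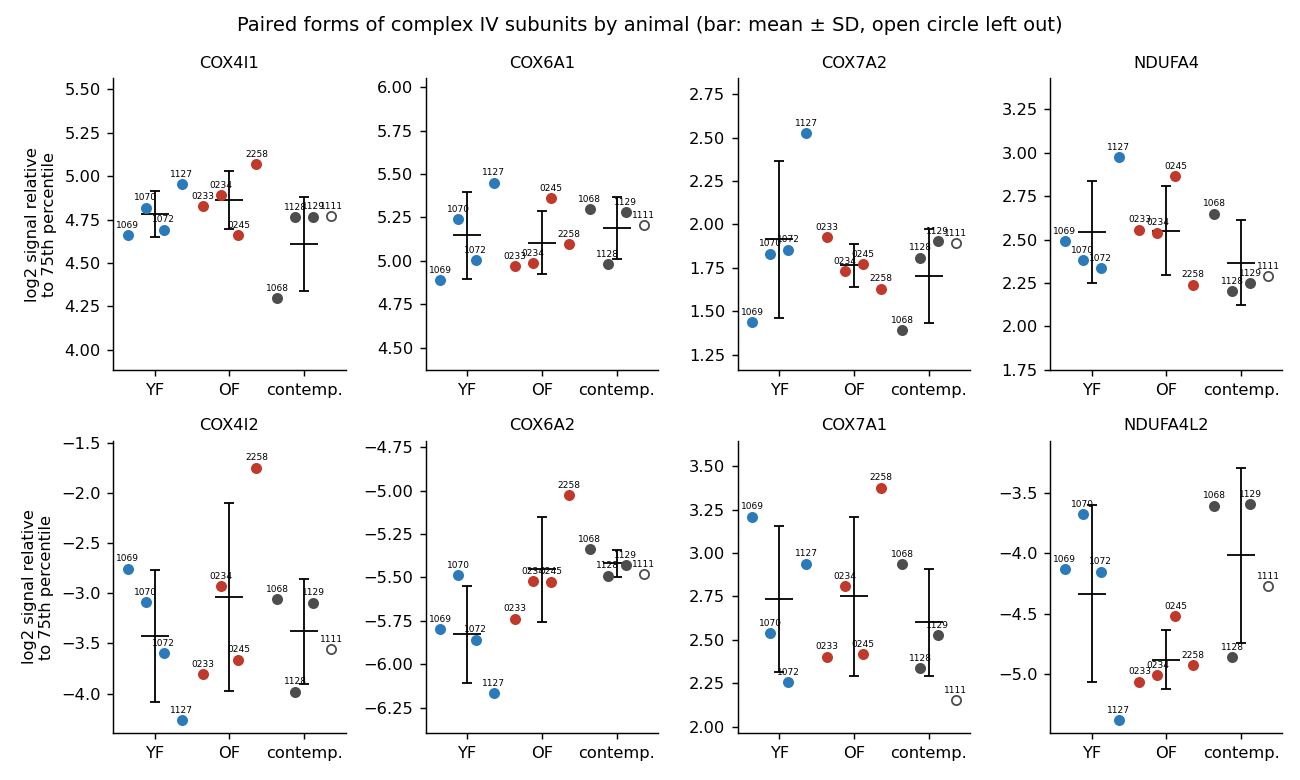
Ubiquitous forms of 4 complex IV subunits (top) and their alternative forms (bottom) in each animal (y axis, log2 signal relative to the 75th percentile of the array; scales differ between panels), with group mean ± SD; the open circle is contemporary cow 1111, left out of the mean. OF 2258 is highest for COX4I2, COX6A2 and COX7A1, and YF 1127 is lowest for COX4I2, COX6A2 and NDUFA4L2.

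The contemporary cows were set against each clone group, and these comparisons share their contemporary animals with each other and their OF or YF with the comparison above. Against YF, 0 of 104 members and 0% of 19993 transcripts tested passed an adjusted p of 0.05 (limma). The count at an unadjusted p was 0 of 104 (3.03% of all), and FCROS called 0 (4.23% of all). The groups were separated in 1 member, against 3.83% of all transcripts. This was NDUFA9, an accessory subunit of complex I, at 2.12, 2.0 and 2.15 in the contemporary cows and 2.15 to 2.32 in the YF. The separation was minimal, as contemporary cow 1129 measured 2.1467 and YF 1069 2.1468. The difference of means was -0.14 (-0.47 to 0.19). The median over members was -0.05 (38 higher, 66 lower in contemporary cows), beside -0.02 over all, but 0.04 without YF 1127 (-0.04 over all). Of the intervals, 101 of 104 lay within 2-fold (73.8% of all), the others being SDHD, NDUFA4L2 and 1 COX7C transcript.

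Against OF, again 0 of 104 and 0% of 19914 transcripts passed an adjusted p of 0.05 (limma). NDUFA4L2 was the 1 member at an unadjusted p below 0.05 (4.57% of all) and the 1 called by FCROS (5.4% of all), and 0 members had groups that did not overlap (5.79% of all). The median over members was -0.07 (30 higher, 74 lower), beside -0.04 over all. ATP synthase had 17 of 19 lower in contemporary cows, with a median of -0.10, and complex IV 16 of 22, with -0.09. In neither complex did a member pass the adjusted test. Intervals lay within 2-fold for 100 of 104, against 64.9% of all.

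Animals of the same group differed over wide sets of members at once. Each transcript was centred on its mean over the 11 animals, and the median over the 104 was taken for each animal. It was -0.13, 0.03, -0.12 and 0.28 in YF 1069, 1070, 1072 and 1127, and -0.07, -0.01, 0.14 and 0.05 in OF 0233, 0234, 0245 and 2258. The contemporary cows 1068, 1128 and 1129 lay at 0.00, -0.09 and 0.01, and cow 1111 at -0.06. The YF thus held both the highest and the lowest animals, and the group averages were close: 0.03 ± 0.09 in OF, 0.02 ± 0.19 in YF and -0.03 ± 0.05 in contemporary cows (n = 4, 4 and 3).

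In YF 1127, 92 of 104 members lay above their own mean and 48 (46.2%) were the highest of the 11 animals, while this animal was the highest in 9.08% of all transcripts tested. The shift held in complex I (0.30), III (0.25), IV (0.33) and ATP synthase (0.26), and its median remained 0.26 with normexp background correction. YF 1069 was the lowest animal in 30 members (28.8%, against 7.71% of all) and YF 1072 in 21 (20.2%, against 3.95%). YF 1127 and OF 0245 were together the highest 2 animals in 36 members (34.6%), against 2.42% of all transcripts. Some of the 36 are transcripts of the same gene. Of the 36, 16 were complex I subunits, which made up 40 of the 104 members. For the small accessory subunit NDUFA6, for example, YF 1127 measured 4.08 and OF 0245 3.71, and the other 9 animals 3.13 to 3.65. YF 1127 also had the highest ciliated cell markers (median 1.66) and the lowest endothelial markers (-0.72), and the part of cell makeup in its shift was not tested.

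OF 2258 and YF 1127 were the highest 2 animals in a further 17 members (16.3%, against 2.32% of all transcripts), among them ATP5E, ATP5H, ATP5I, ATP5J2, ATP5L and NDUFS5. Some of the 17 are likewise transcripts of the same gene. OF 2258 and YF 1069, low in epithelial markers, held both top places in 5 members and both bottom places in 11. The former were COX4I2, COX6C, COX7A1, NDUFAF6 and UQCRH, and the latter included UQCR10, NDUFC1, NDUFA7, COX8A and COX5A. In UQCRH these cows measured 5.93 and 5.46 and the others 4.63 to 5.41, while in NDUFC1 they measured 1.59 and 1.66 and the others 2.01 to 2.79. Over all transcripts the same pair held both top places in 9.99% and both bottom places in 9.28%, close to the members' share for the bottom places (10.6%) and above it for the top (4.81%).

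**Figure D4:**
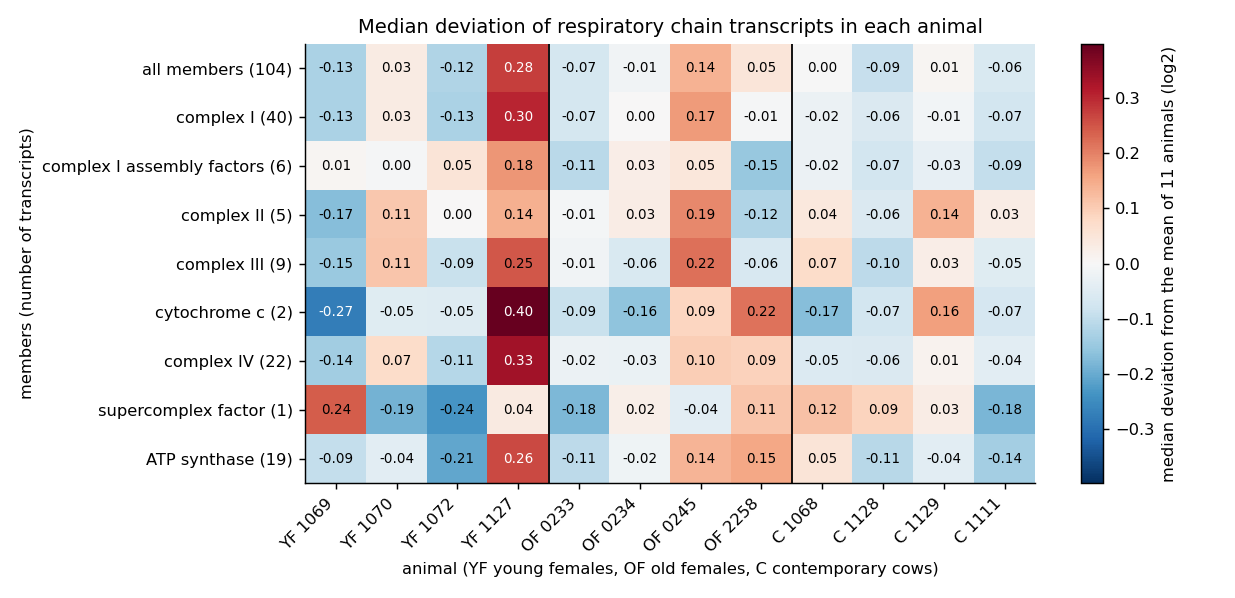
Median deviation from the mean of 11 animals (colour and number, log2) of the members of each complex (rows) in each animal (columns; YF young females, OF old females, C contemporary cows, of which 1111 is not part of the mean). YF 1127 is above 0 in every row, and OF and YF columns do not separate.

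Of the 92 symbols, 10 had more than 1 transcript on the array, 22 transcripts in all, some of them at separate loci under 1 name. COX7B, a small complex IV subunit, was placed at chrX:79540625-79544590, chr17:60146304-60146762 and chr7:42303403-42303827. A single 60-base sequence stood on 5 probes for these 3 loci, so they cannot be told apart by it. It is shown because all 3 transcripts are read through it.

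COX7B, 3 loci: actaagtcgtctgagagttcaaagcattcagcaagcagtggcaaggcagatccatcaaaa

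YF 1127 was the highest animal for each of the 3 transcripts, and their differences between OF and YF were -0.01 (chromosome X), -0.03 (chromosome 17) and 0.01 (chromosome 7).

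COX7C, a small structural subunit of complex IV, was placed at chr7:88648457-88650528, chr10:72298985-72299176 and chr19:21117462-21117982. The chromosome 10 locus spans 192 bases and the chromosome 19 locus 521. The second probe of chromosome 7 overlaps the first of chromosome 19 by 32 bases with 1 difference. Of this overlap 30 bases are shown, with the differing base in capitals, because it sets which locus a signal can be assigned to. The second probe of chromosome 19 is shown for its values below.

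COX7C chromosome 7, probe 2: gtctcttaaaaggatcaatcccttgaaTtc

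COX7C chromosome 19, probe 1: gtctcttaaaaggatcaatcccttgaaCtc

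COX7C chromosome 19, probe 2: gcctcttctctgaaatatggaacatgataa

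Between OF and YF the 3 loci differed by 0.05, 0.05 and -0.02. The second probe of chromosome 19, the last sequence above, behaved unlike the others in the contemporary cows, and was picked out after its values were seen. In the 8 clones it lay between 2.33 and 3.03. In contemporary cows 1068 and 1129 it measured 0.71 and 0.08, and in 1128 and 1111 it measured 3.19 and 3.34. The first probe of that locus showed no such split, at 4.14, 4.00, 3.82 and 3.89 in the same 4 cows, nor did either probe of the other loci. The mean of the locus accordingly differed by -0.65 (-1.45 to 0.16) between contemporary cows and YF and by -0.63 (-1.42 to 0.16) between contemporary cows and OF, and neither passed the test. The clones share 1 nuclear genome and the contemporary cows' genotypes are not given. The part of sequence differences in this probe was not tested.

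**Figure D5:**
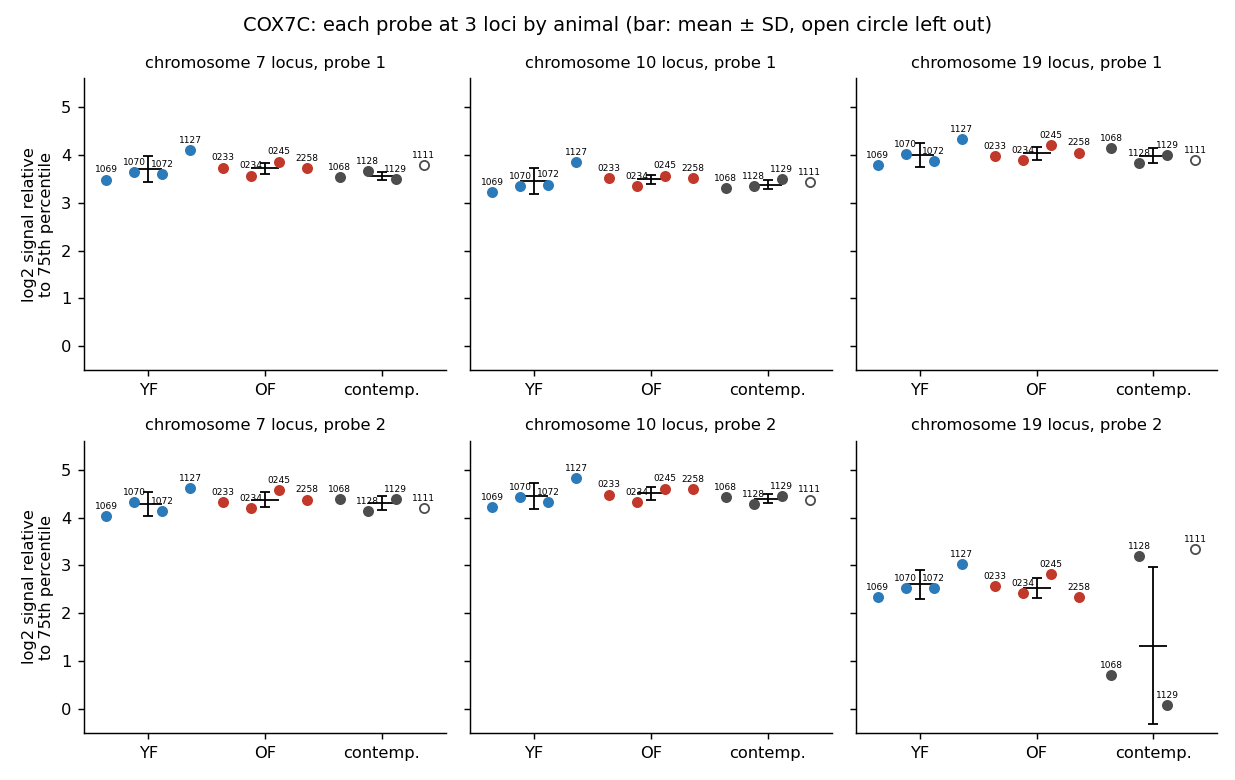
Each COX7C probe sequence (a pair for each of 3 loci) in each animal (y axis, log2 signal relative to the 75th percentile of the array), with group mean ± SD; the open circle is contemporary cow 1111, left out of the mean. In 5 panels the animals lie within a narrow band, and in probe 2 of the chromosome 19 locus contemporary cows 1068 and 1129 lie far below all others.

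Contemporary cow 1068 was the lowest animal in other single genes. SDHD measured -0.98 there against 0.03 in 1128 and 0.68 in 1129, COX6B1 -0.42 against 0.85 and 0.59, and COX4I1 4.30 against 4.76 and 4.77. OF 0245 was next lowest in these genes, at -0.45, 0.14 and 4.66. These animals were together the lowest 2 in 7 members (6.73%), against 7.29% of all transcripts. Both probes of SDHD and of COX6B1 were low in cow 1068. After the usual gap between the probes of a transcript was removed, the probes disagreed by more than 0.3 log2 in 18 members in this cow, 15 in contemporary cow 1129 and 4 to 13 in the other 10 animals. Over all arrays, probes of identical sequence differed by a standard deviation of 0.02 to 0.29 log2 with a median of 0.03 over 32 sequences, and the part of spot noise in this cow was not tested.

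Genes that work with the chain were likewise without calls between OF and YF. None of the following lists, chosen by function, held a gene at an adjusted p below 0.05 (limma) in any comparison. Of 13 transcripts encoded by mitochondrial DNA, 9 were higher and 4 lower in OF, with a median of 0.13. OF 2258 lay 0.71 above the mean of 11 animals while the other animals of the fits lay between -0.19 and 0.15, and without this cow 4 were higher and 9 lower, with a median of -0.03. Without OF 2258 and OF 0234 all 13 were lower in OF, with a median of -0.07. Among 31 assembly factors outside the symbol rule, 15 were higher and 16 lower (median -0.01). For 15 regulators of mitochondrial biogenesis, such as TFAM and PPARGC1A, the split was 8 to 7 (0.06), and for 14 enzymes of the tricarboxylic acid cycle 6 to 8 (-0.03), or 8 to 6 (0.02) without OF 2258. Of 20 electron carriers, nucleotide exchangers and uncoupling proteins, 13 were higher and 7 lower (0.05). In that list SLC25A6, an ADP/ATP carrier, was the 1 gene of 20 at an unadjusted p below 0.05 (limma), against 2.42% of all transcripts tested. Its difference was 0.35, with a limma adjusted p of 0.999.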

How the data were processed

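The authors hybridized Cy3-labelled cRNA of each biopsy to a 1-colour custom bovine Agilent array (UMD3.1 transcripts) and scanned it with Agilent Feature Extraction. The deposited files hold background-subtracted processed signals as intensity values on a linear scale, per spot and not yet normalized between arrays. The number of arrays limits the precision. Biopsies came from separate animals.

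Left out were 1319 control spots and the 66 probes that carried an outlier flag on any array. The log2 processed signal minus the 75th percentile of its array was averaged per probe and then per transcript, giving 61333 probes and 26323 transcripts. A transcript was tested when it was well above background on every array of at least 1 of the 2 groups compared. limma 3.58.1 (R 4.3.3; lmFit, eBayes) compared OF with YF, contemporary cows with YF and contemporary cows with OF, each on its own 7 or 8 arrays without covariates, two-sided, with Benjamini-Hochberg adjustment over all transcripts tested and a threshold of 0.05. The limma fits and FCROS were also run on simulated data with known changes. Values there were drawn independently for each transcript, without shifts shared by the transcripts of an animal. Exact permutation tests of single genes permuted the animals between the groups and took the difference of means. FCROS followed the methods: f-value at or beyond 0.025 or 0.975 and a fold of 1.5, over all 26323 transcripts. FCROS gives no error rate over transcripts, so limma was the main test. Slide 1 held 1 OF, 2 YF and contemporary cow 1111, and slide 2 the remaining 8 animals.

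The members and lists were chosen with earlier results of these data known. Named genes were a core subunit of each complex or carrier, the isoform pairs, members at an unadjusted p below 0.05 (none passing an adjusted p) and the highest and lowest difference between OF and YF in each complex. A gene with several transcripts is given by its brightest. NDUFA6, NDUFA7, NDUFA9, NDUFAF6, NDUFC1, NDUFS5, COX6C, COX7C, ATP5E, ATP5H, ATP5I, ATP5J2 and ATP5L fall outside this rule and were named after their values were seen, as was SLC25A6 outside the members. Alternatives changed normalization, background, probes, filter, slide, arrays in the fit or the test. The setting without OF 2258 and OF 0234, and all leave-outs for the pathway lists, were chosen after seeing the data. Of the 92 symbols, 92 matched RefSeq and 17 have a newer one. Sequences are those of the array's probes. A further probe overlap is not reported here.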

Additional observations from a re-analysis of the deposited data

Results flagged for a closer look

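In all, 102 sets of values of 4 animals were searched for a single animal far from the other 3 by Dixon's criterion. Such an animal was found in 7 sets, where chance alone gives about 1 in 20. All 7 were sets of genes named by the rule. YF 1127 was alone at the top for NDUFA1 (4.12, the others 3.51 to 3.59) and COX7B (2.06, the nearest 1.57). OF 0245 was alone at the top for NDUFV1 (3.49, the nearest 3.29), UQCRC1 (3.41, the nearest 3.13) and COX8B (1.18, the nearest 0.65), and alone at the bottom for SDHD (-0.45, the nearest 0.09). OF 0233 was alone at the bottom for NDUFS8 (-1.06, the others -0.80 to -0.79).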

How the results depend on the processing

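No member passed an adjusted p of 0.05 under any of the 19, 18 and 19 alternatives to the comparisons of OF with YF, contemporary cows with YF and contemporary cows with OF, other than FCROS, which called 1, 0 and 1. Members at an unadjusted p below 0.05 numbered 0 to 2, 0 to 1 and 0 to 3. The median over all members ranged from -0.08 (slide 2 only) to 0.11 (without YF 1127) for OF against YF, from -0.11 (slide as a block) to 0.04 (without YF 1127) for contemporary cows against YF, and from -0.10 to -0.02 for contemporary cows against OF. Of 504 medians by complex, 9 moved by more than the spread between animals. In OF against YF the assembly factors had 0.053 with normexp background correction, 0.034 with array weights and -0.16 without OF 2258 and OF 0234, a setting chosen after seeing the data. Within slide 2 complex IV had -0.14, COX7A2L -0.15 and ATP synthase -0.11. In contemporary cows against YF, COX7A2L had -0.060 with slide as a block and within slide 2, and against OF the assembly factors had -0.065 with array weights. The slide settings give equal differences for contemporary cows, since all those in the fits lay on slide 2. Of the YF, only 1069 and 1127 lay on slide 2. The cause was not tested. Named genes had the other sign in 248 of 2184 results, none of which reached an unadjusted p below 0.05 under that alternative. No paired analysis was possible because the groups share no replicate numbers. With 4 or 3 animals a group, each difference is known only to within the width of its 95% interval. The dim probes of NDUFA4L2, COX6A2, NDUFAF1 and a second transcript each of COX4I1 and NDUFS7 limit those levels.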

Other observations

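Contemporary cow 1111, in no fit, had a median deviation of -0.06 over the 104 members, within the -0.13 to 0.28 of the 11 animals compared. Of its members, 35 of 104 (33.7%) lay above the mean of those animals. It measured -4.27 for NDUFA4L2, -3.56 for COX4I2 and 2.15 for COX7A1, and the 13 transcripts encoded by mitochondrial DNA had a median of -0.28, below the -0.19 of the lowest animal in the fits.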
